A study of Rattus norvegicus with 20 samples.

Results

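Serum-derived astrocytes were compared with the low-density progenitors they were made from, using 10 of the 20 arrays of the series. The arrays were assigned by their labels, as those of rat CCg progenitors at low density (LD, 4 arrays) and of such cells given FBS with the aim of deriving astrocytes (FBS, 6 arrays). Within a group, arrays whose titles carry one number were averaged as log2 values. Each such average is a culture below, which gave 4 FBS cultures (1 to 4) and 3 LD cultures (1, 3 and 4). The other 10 arrays hold 3 cultures of high-density progenitors (HD) and 4 of LD cells given RA/Fsk to derive neurons, and they are used only where a level is set beside FBS.

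FBS usually stands for fetal bovine serum, RA for retinoic acid and Fsk for forskolin. CCg is known as the name of a glycosylated cystatin C that acts with a fibroblast growth factor on neural progenitors, but the labels do not expand it. They also give no tissue of origin, strain, age, dose or time of treatment. Since no label says that the numbers mark separate cultures, p-values measure only the spread between these samples, which may be technical.

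Astrocytes are the glia that take up glutamate, turn it into glutamine, buffer potassium and supply neurons with lipids and matrix. Serum contains growth factors, lipids, attachment proteins and ligands of the transforming growth factor beta family. In culture it is known to drive flat growth with actin stress fibres and to favour astrocytes over neurons.

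The values are linear array intensities, one for each probe set, and a difference is FBS minus LD on the scale log2(intensity + 4.99), which understates the change of dim genes. The words rose, fell and changed are kept for an adjusted p under 0.05 in limma over all 8740 probe sets tested. Where a gene has several probe sets, the one with the highest mean over all cultures stands for it unless another is named. The middle intensity of all values was 49.1, so levels well under that are dim, and no detection calls were used here. The number of arrays limits the precision.

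FBS arrays correlated with LD arrays at r = 0.877 to 0.903 and with arrays of other FBS cultures at 0.956 to 0.979. Of 8740 probe sets, 2225 changed (25.5%), and these include 1227 of 4736 genes (25.9%), with 642 up (13.6%) and 585 down (12.4%). Falls outnumbered rises with median centring (1245 against 976 probe sets), quantile normalization (1167 against 1094) and the GAPDH covariate described below (994 against 934). In size the rises reached further than the falls. At least 8-fold, 109 probe sets rose and 15 fell, and at least 32-fold, 21 rose and none fell. An unadjusted p under 0.05 was reached by 3028 probe sets. The arrays had been set to 1 common level, and on that level the hybridisation spikes, bacterial transcripts added in fixed amounts, were lower in FBS by 0.81 log2 (2-sided exact permutation p = 0.0286, the smallest that 4 against 3 cultures can give). Scaling to the spikes raised the median difference of all probe sets by that amount and gave 4455 rises and 184 falls in place of 1153 and 1072. All directions below are relative to the common level, and the spike-scaled value stands beside groups whose median turned sign with it. The medians of endothelial markers and of smooth muscle and pericyte markers turned too, from -0.19 to 0.62 and from -0.04 to 0.77. Each count of group members that rose or fell against LD is to be read beside the 13.6% and 12.4% of all genes. Among the genes named below, falls no longer called with spike scaling include those of Sox11, Ugt8, Ezr, Csrp2, Actb, Stmn1 and Tubb5, while Vim, Gja1, Kcnj10, Acta2 and the brightest Sparc probe set were then higher in FBS.

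**Figure D1:**
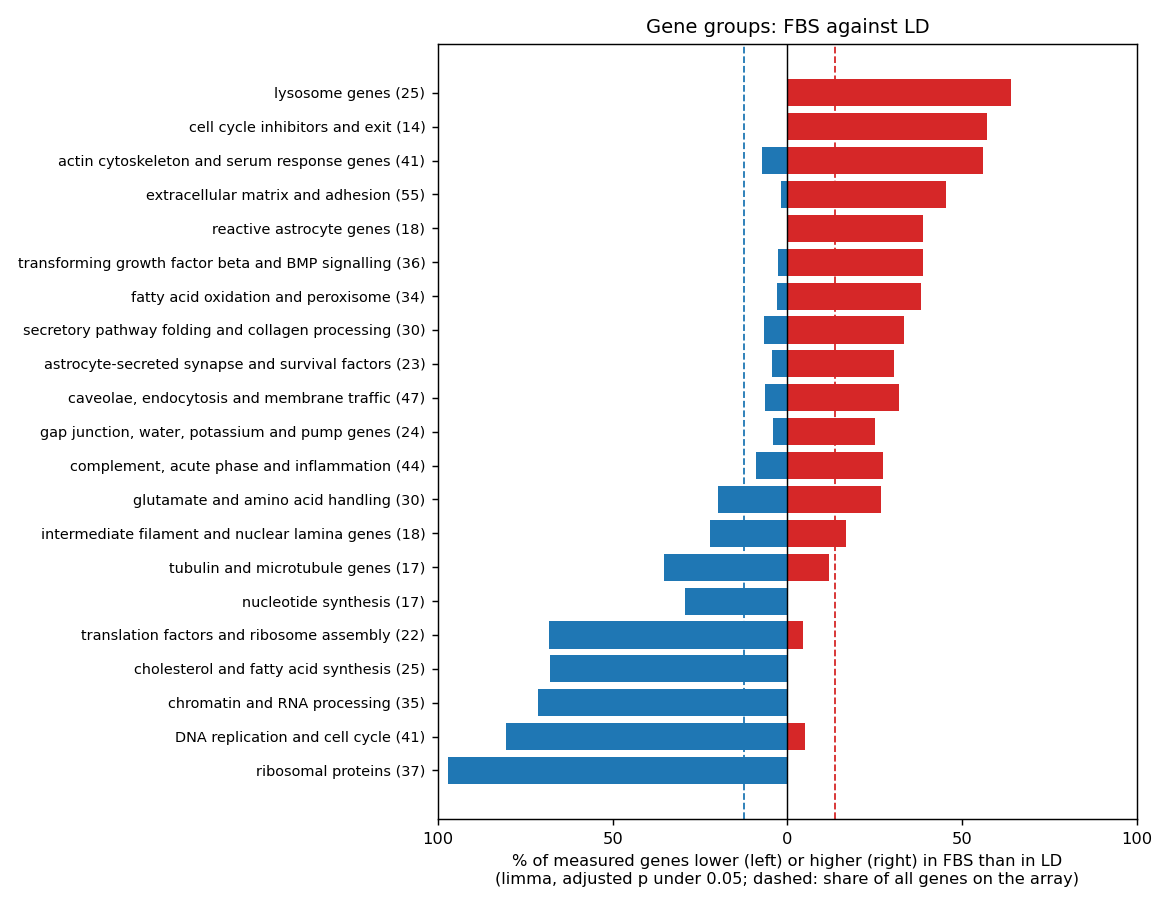
Share of the measured genes of each functional group that were lower (blue, left) or higher (red, right) in 4 FBS cultures than in 3 LD cultures, with the number of measured genes in brackets. The dashed lines mark the shares over all genes on the array, 13.6% higher and 12.4% lower. Lysosome genes lie furthest to the right with 16 of 25, and ribosomal protein genes furthest to the left with 36 of 37.

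The label of the derived cells was checked first against astrocyte markers. S100b, a calcium-binding protein of astrocytes, had intensities of 334, 295 and 336 in LD cultures 1, 3 and 4 and of 1498, 2413, 2138 and 1659 in FBS cultures 1 to 4. Slc1a3, a glutamate transporter of astrocytes and radial glia, went from 62.5, 109 and 98.4 in LD to 342, 369, 359 and 361 in FBS. Glul, which makes glutamine from glutamate, went from 528, 562 and 673 to 1642, 2286, 1623 and 2594. In these 3 genes every FBS culture lay above every LD culture, which held for 16.9% of all probe sets. They are shown as markers that passed on the same values, so this separation adds no evidence. They rose 5.82-fold, 3.91-fold and 3.39-fold (adjusted p = 2.88e-08, 0.000117 and 9.3e-07).

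Other members of the astrocyte list moved with them. Ndrg2, a differentiation-related gene of astrocytes, rose by 2.43 ± 0.29 log2 (SE), Cpe, a carboxypeptidase that processes prohormones, by 2.19 ± 0.29, and Agt, the precursor of angiotensin, by 2.03 ± 0.33. Of the 25 astrocyte markers measured, 10 rose and 1 fell, against 13.6% and 12.4% of all genes, and the median difference was 0.34. Without the dimmer 25% of probe sets that median was 1.01. The summed intensity of the list was 17127 to 20572 in LD, 22093 to 24608 in FBS and 16210 to 24796 in HD. The fall was in Cspg5, a brain proteoglycan, at 892, 1319 and 1154 in LD and 225, 176, 323 and 242 in FBS. It moved opposite to the other 10.

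Other markers of the list, named here after their values were seen or as set markers, did not pass. Aqp4, the water channel of astrocyte endfeet, lay at 7.20 to 20.2 in LD and 4.40 to 9.10 in FBS. Gja1, the main gap junction protein of astrocytes, lay at 2.60 to 10.1 and 5.08 to 8.90, and Aldh1l1, a folate enzyme used as a pan-astrocyte marker, at 11.8 to 27.0 and 8.70 to 12.8. Slc1a2, the main glutamate transporter of the adult forebrain, lay at 8.30 to 57.9 in LD and 13.6 to 50.5 in FBS. None of these 4 passed, and at such dim levels a change may not be measurable. Of the 3 other Slc1a2 probe sets, 1 fell (-1.26 ± 0.30), from 6.65 to 28.3 in LD to 3.20 to 4.74 in FBS. Kcnj10, the potassium channel of glia, did not pass either (1.24 ± 0.52, adjusted p = 0.102). No probe set was named Gfap in the annotation used here, so the most used astrocyte marker was not analysed here.

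**Figure D2:**
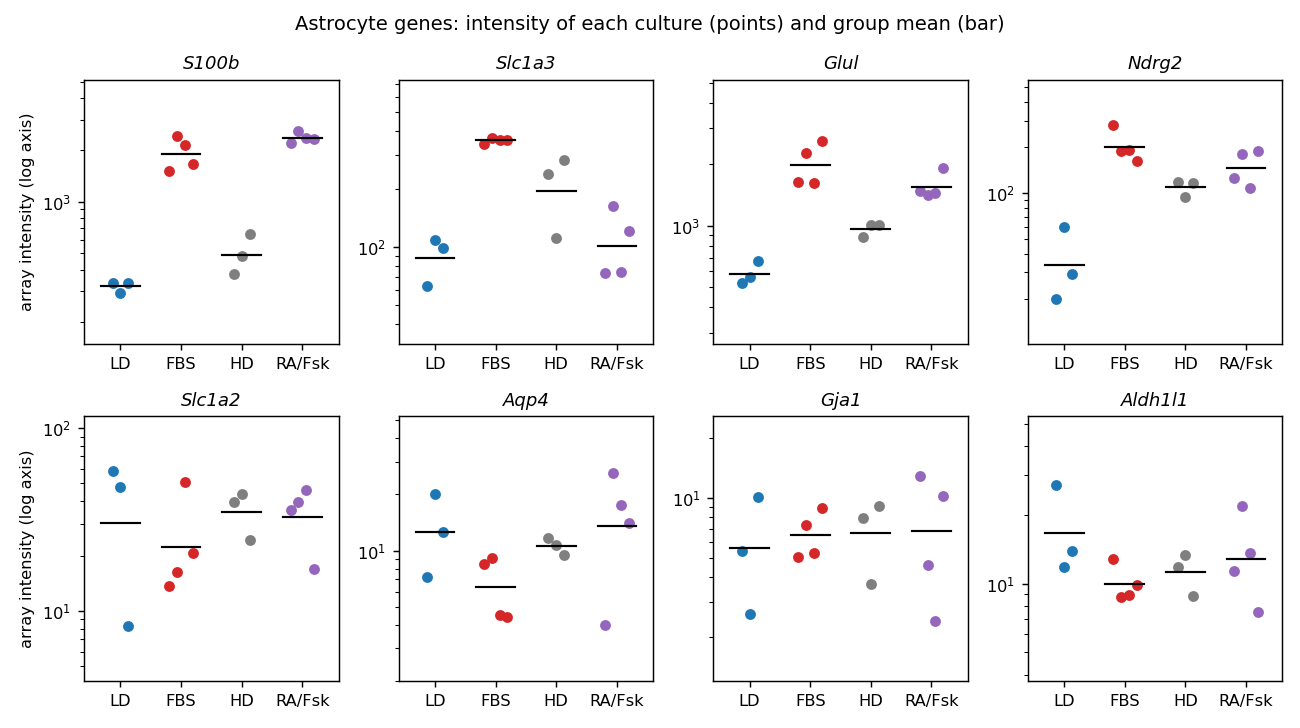
Array intensity (log axis) of 8 astrocyte genes in each culture (points) with the group mean (bar), for LD, FBS, HD and RA/Fsk. S100b, Slc1a3, Glul and Ndrg2 are higher in all 4 FBS cultures than in all 3 LD cultures, while Slc1a2, Aqp4, Gja1 and Aldh1l1 stay below 100 in every culture.

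Progenitor markers split. Fabp7, the fatty acid binding protein of radial glia, fell from 446, 552 and 474 to 130, 196, 130 and 107, and Ptprz1, a receptor phosphatase of radial glia, from 493, 681 and 798 to 252, 256, 178 and 125. Sox11, a transcription factor of immature neurons and progenitors, fell by 1.19 on the log2 scale. In the other direction Fgfr1, a fibroblast growth factor receptor, rose by 1.97 ± 0.27 and Tnc, the matrix protein tenascin C, by 1.34 ± 0.20. The intermediate filaments of progenitors and immature glia showed no called difference. Nes, which encodes nestin, lay at 970 to 1573 in LD and 1033 to 1482 in FBS, and Vim, which encodes vimentin, at 3225 to 4723 and 4712 to 4949. In all, 2 of 15 rose and 5 fell, with a median of -0.20 (0.60 with spike scaling) against -0.07 over all genes. Of the 5 falls, Hes5, a Notch target, was lost under 12 of its 21 alternatives (adjusted p = 0.0105 to 0.38), and Notch1, a Notch receptor, under 8 of 22, with its sign turned by spike scaling (0.30). Leaving out LD 1, LD 3, FBS 2 or FBS 3 left 3 falls each time, and spike scaling left 2.

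Markers of the oligodendrocyte lineage also moved both ways. Pdgfra, the growth factor receptor of oligodendrocyte precursors, fell from 562, 999 and 803 to 110, 140, 132 and 144, and Ugt8, which makes the myelin lipid galactosylceramide, fell by 1.29 on the log2 scale. Enpp2, a secreted enzyme that makes lysophosphatidic acid, rose from 110, 75.8 and 83.5 to 748, 1165, 938 and 736. Mbp, which encodes myelin basic protein, rose by 1.46 ± 0.49, a call that was lost under 14 of the 22 alternatives run (adjusted p = 0.000697 to 0.244). Of the 11 measured, 2 rose and 2 fell, beside 13.6% and 12.4% of all genes. Their median turned from -0.14 to 0.67 with spike scaling, where 6 rose and 1 fell.

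Of 23 neuron markers, 4 rose and 2 fell, near the 13.6% and 12.4% of all genes. Without any 1 of the LD cultures, or without FBS culture 2, 3 or 4, 1 fell, and without the dimmer 50% of probe sets none rose. Chgb, a granin of secretory vesicles, went from 6.16, 2.60 and 3.40 in LD to 60.3, 100, 174 and 181 in FBS. Calb1, the calcium buffer calbindin, went from 14, 5.2 and 3.3 to 74.2, 66.7, 112 and 93.6, and Nefm, a neurofilament, rose by 2.26 ± 0.58. All 3 were dim in LD, and they rose in cultures labelled as astrocytes. The summed intensity of the 23 markers was 5671 to 6101 in LD and 5141 to 5384 in FBS, a gap smaller than the shift of the spikes. With spike scaling 11 of the markers rose and none fell (median 0.70). Map2, a microtubule protein of dendrites, showed no called difference (462 to 728 in LD, 544 to 640 in FBS), although 1 of its 4 dimmer probe sets rose (0.68 ± 0.24, adjusted p = 0.0479). With spike scaling it was higher in FBS by 0.78 (adjusted p = 0.0272).

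Markers of cells outside the neural lineage were read as a check on what the cultures held, and in bulk RNA more cells of a type and more RNA per cell cannot be told apart. The summed intensity of 10 smooth muscle and pericyte markers was 336 to 445 in LD and 1296 to 2854 in FBS. Most of that gap was in Myl9, a myosin light chain, and Tagln, an actin-binding protein, which are also members of the serum-responsive actin group below. The smooth muscle actin Acta2 (89.6 to 141 in LD, 134 to 186 in FBS) did not pass on its brightest probe set, and neither did the other 7, Des and Myh11 among them. A dimmer Acta2 probe set rose by 1.75 ± 0.35, from 22.3 to 26.9 in LD to 79.3 to 116 in FBS. The summed level of 14 fibroblast and meningeal markers was 436 to 608 in LD and 589 to 683 in FBS. Within it Postn, the matrix protein periostin, rose from 4.64, 0.9 and 1 to 170, 152, 115 and 105, and Pdpn, a membrane glycoprotein, rose by 1.95 ± 0.29. Thy1, a surface glycoprotein, fell by 1.05 on the log2 scale, and Col1a1, a main collagen of fibroblasts, lay at 84.3 to 88.8 in LD and 63.9 to 106 in FBS. The sums overlapped between LD and FBS for 14 microglia and leukocyte markers (556 to 733 and 507 to 694) and 10 endothelial markers (312 to 489 and 339 to 480), and Aif1, Ptprc and Pecam1 did not pass. In the first of these lists Coro1a fell by 3.93 on the log2 scale and the cathepsin Ctss rose by 1.46 ± 0.27, and in the second Edn1, which encodes endothelin, rose by 1.21 ± 0.41. The sum of 8 Schwann cell markers did not overlap, at 2199 to 2247 in LD and 2415 to 3550 in FBS. In that list Egr2, a transcription factor, rose by 2.79 ± 0.40, the adhesion protein L1cam by 0.86 ± 0.29, and the transcription factor Pou3f1 fell by 2.13 on the log2 scale. The calls of L1cam, Edn1 and Thy1 were lost under 9 of 22, 6 of 22 and 8 of 21 alternatives, some of which left out 1 culture. The part of such cells in the differences below was not tested.

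Among the 12 largest rises were Igfbp2, Anxa1 and Sod3, each read here on its probe set with the largest rise. Igfbp2, which binds insulin-like growth factors outside cells, had 13.8, 9.4 and 11 in LD and 1376, 2026, 1829 and 2019 in FBS, and all 3 of its probe sets rose. Anxa1, a calcium-dependent membrane-binding protein, had 11.7, 3 and 1.5 in LD and 1097, 876, 844 and 957 in FBS. Sod3, the extracellular superoxide dismutase, had 9.19, 7.20 and 11.3 in LD and 543, 931, 426 and 752 in FBS. Each of these 3 probe sets went from under 15 in every LD culture to over 400 in every FBS culture. The rule for the largest rises and falls took only called probe sets whose cultures did not overlap, so their separation was set in advance. On the brightest probe sets of Anxa1 and Sod3 the rises were 5.76 ± 0.30 and 3.77 ± 0.36.

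The largest change relative to its error was in Cryab, a small heat shock protein that holds unfolded proteins. It went from 119, 133 and 112 in LD to 6468, 5429, 6740 and 7199 in FBS, a 51.0-fold rise (5.67 ± 0.17 log2, adjusted p = 1.91e-12). HD cultures held 178 to 188 and RA/Fsk cultures 277 to 486, so the 4 FBS cultures stood alone. Over all genes, the 4 FBS cultures lay above all 10 other cultures for 382 genes (8.07%, and 7.63% of probe sets) and below all of them for 289 (6.10%, and 5.55% of probe sets).

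Some rises depended on which probe set was read. Sparc, a matrix-binding glycoprotein of astrocytes, rose by 6.15, 5.21 and 4.05 on 3 probe sets, while its brightest, at 744 to 1633 in LD and 1486 to 2203 in FBS, did not pass (0.67 ± 0.26, adjusted p = 0.0738). The integrin Itga7, a laminin receptor, rose by 5.08, 1.77 and 1.32 on its 3 probe sets. Opposite signs among called probe sets were uncommon. Of 340 genes with at least 2 probe sets that passed, all but Adcy5, an adenylate cyclase at 0.91 and -0.96, had them in 1 direction. Probe sets that did not pass beside others that did were common. Of 658 genes with several probe sets and at least 1 that passed, 264 had every probe set pass in 1 direction. Among genes given below, Cd44 rose on 2 of 4 probe sets and Cat and Atp1b2 on 2 of 3, while Idi1 and Acsl3 fell on 1 of 2.

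The largest falls were smaller and mixed in kind. Coro1a, an actin-binding protein of leukocytes, went from 122, 133 and 174 in LD to 4.19, 3.20, 3.40 and 8.40 in FBS. Scfd2, a relative of vesicle fusion regulators, went from 193, 350 and 352 to 38.4, 30.4, 23.0 and 32.9, and its other probe set fell too. Thbs4, a thrombospondin, went from 93.0, 114 and 93.5 to 7.09, 19.9, 7.99 and 6.30. Nell2, a secreted protein of neurons, had the largest error of these 4 (SE 0.61), at 163, 812 and 453 in LD and 35.1, 21.9, 134 and 52.4 in FBS, and its call was lost when the ratio of the GAPDH 5' and 3' control probe sets entered as a covariate (adjusted p = 0.115). That ratio, a sign of RNA length, was higher in FBS by 0.27 log2 (exact permutation p = 0.0286). The hexokinase 5' to 3' ratio was higher by 0.99 (exact permutation p = 0.0286) and that of beta-actin by 0.12 (exact permutation p = 0.0857). Neither of these was tried as a covariate. The GAPDH covariate also ended the calls of Mbp, Hes5, Notch1, Thy1, Edn1 and L1cam, named above, and of Aqp1, Tgfb2, Phgdh, Ccl2, Ccnd1 and Smad7, named below. The largest fall by size, in Rpl19l4 (-4.72 ± 0.32), comes from 1 probe set of a gene like that of a ribosomal protein, far below the -0.95 median of that family. Crp (-3.29, with 2 of 3 probe sets called) and Epb41 (-3.22, with 1 of 2 called) fell further than Scfd2, Thbs4 and Nell2.

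Matrix, adhesion and their proteases formed the largest group and held the most rises, though lysosome genes rose in a larger share (16 of 25). Of the 55 matrix and adhesion genes measured 25 rose and 1 fell, with a median of 0.84 against -0.07 over all genes. Fn1, which encodes fibronectin, went from 33.9, 30.1 and 45.4 in LD to 2239, 1929, 2012 and 3414 in FBS. Cd44, the hyaluronan receptor, went from 33.9, 29.0 and 27.6 to 686, 902, 860 and 874. Plat, the tissue plasminogen activator, went from 33.0, 23.4 and 20.4 to 446, 559, 461 and 550. Inhibitors of matrix proteases rose beside it, Timp1 by 1.10 ± 0.11, Timp2 by 1.99 ± 0.15 and Timp3 by 2.68 ± 0.32. The only fall was in Sdc1, a heparan sulphate proteoglycan of the cell surface, at -1.72 ± 0.29.

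Of 30 genes of secretory folding and collagen processing, 10 rose, 2 fell and 18 did not pass (median 0.25), beside 13.6% up and 12.4% down of all genes. Serpinh1, the collagen chaperone, went from 3.6, 5 and 4.2 to 14.8, 37.1, 54.3 and 39.9, and the lysyl hydroxylase Plod2 went from 134, 114 and 100 to 374, 252, 309 and 307. P4hb, a disulphide isomerase and subunit of prolyl hydroxylase, rose by 0.74 ± 0.14 and the calcium-binding chaperone Calr by 1.06 ± 0.19. Ppib, a cyclophilin of the same compartment, fell by 0.76 on the log2 scale, and that direction was lost with spike scaling (0.05).

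Actin cytoskeleton and serum response genes rose in 23 of 41 cases and fell in 3, with a median of 0.65. S100a4, a calcium-binding partner of myosin, went from 73.0, 57.6 and 36.4 to 1374, 1028, 1162 and 1391. Pdlim1, an adaptor at stress fibres, went from 219, 243 and 273 to 1708, 1536, 1863 and 2780, and Myl12a, a regulatory light chain of myosin, from 356, 427 and 344 to 2229, 1728, 1953 and 1741. The 3 that fell were Ezr, which encodes the membrane linker ezrin, the LIM protein Csrp2 and the cytoplasmic actin Actb.

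The CArG box is the element bound by serum response factor, and it was searched on both strands in the 250 bases before each gene's start in RefSeq's GRCr8 promoters. Of the 23 genes of this group that rose, 18 had a promoter in that table and 3 held a match (16.7%), namely Actg1, Fhl2 and Rnd3. The share was 1.6% over the 3879 genes on the array with a promoter and 1.5% over all 27457 promoters. Over all measured genes of this group with a promoter it was 4 of 32 (12.5%). The stretches below show this match in capitals in 2 genes of unlike level, cytoplasmic gamma actin and the LIM-domain coactivator Fhl2. The Actg1 stretch is chr10:106121002-106121071 on the minus strand and the Fhl2 stretch chr9:52954596-52954665 on the minus strand.
Actg1: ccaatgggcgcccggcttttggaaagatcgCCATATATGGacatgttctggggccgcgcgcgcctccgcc
Fhl2: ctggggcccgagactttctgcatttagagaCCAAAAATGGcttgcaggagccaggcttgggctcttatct
Actg1 was bright already in LD (5485, 6034 and 5699) and reached 9196, 7310, 8393 and 8524 in FBS, a 1.45-fold rise whose call was lost with median centring (adjusted p = 0.104). Fhl2 went from 9.3, 23.4 and 2.5 to 92.2, 51.5, 69.4 and 126. A match is a description of the sequence and does not show binding.

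Of 47 genes of caveolae, endocytosis and traffic, 15 rose and 3 fell, beside 13.6% and 12.4% of all genes, with a median of 0.39. Cav1, the coat protein of caveolae, went from 63.1, 58.2 and 64.4 to 508, 527, 508 and 550. Among annexins, which bind membranes when calcium rises, Anxa5 went from 165, 130 and 154 to 1933, 2317, 2050 and 1859, and Anxa2 from 234, 247 and 272 to 2255, 1395, 1824 and 2015. Anxa6 went the other way, from 205, 145 and 256 to 48.1, 39.5, 35.7 and 43.0, on its brighter probe set. Its other probe set showed no called difference (0.05 ± 0.32). The transferrin receptor Tfrc fell by 1.40 on the log2 scale, a call lost without LD culture 4 (adjusted p = 0.0728) and with spike scaling (-0.59).

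Lysosome genes rose together, 16 of 25 with 0 falls and a median of 1.09. The hydrolases include Ctsl, a cathepsin, at 146, 178 and 167 in LD and 711, 803, 827 and 766 in FBS, and Lipa, the acid lipase that frees cholesterol from lipoproteins, at 103, 86.9 and 102 and 401, 357, 370 and 437. Ctsb, another cathepsin, rose by 1.59 ± 0.17 and Ctsd, an aspartic protease, by 1.41 ± 0.18. Grn, the lysosomal and secreted protein progranulin, went from 801, 934 and 836 to 3449, 3198, 3525 and 3554. The membrane protein Lamp1 rose by 1.22 ± 0.20, and Atp6v0c, a subunit of the proton pump that acidifies lysosomes, by 1.09 ± 0.13. For each of these 7 genes all FBS cultures lay above all LD cultures, which held for 16.9% of probe sets in this direction. The 7 were named by small adjusted p or after their values were seen, so this separation was largely set in advance.

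Many lysosome genes are known to carry the CLEAR element, bound by TFEB and its relatives, whose core searched here was TCACGTGA, a palindrome that contains the E-box CACGTG. It was found within 250 bases before the start in 3 of 14 lysosome genes that rose and have a promoter in the table (21.4%), namely Ctsd, Lamp1 and Igf2r. The share was 1.03% over genes on the array and 0.743% over all promoters. Over all measured lysosome genes with a promoter it was 3 of 20 (15.0%). Below, Ctsd (chr1:206968822-206968862, minus strand) and Lamp1 (chr16:83075065-83075159, minus strand) are shown with the core in capitals, since they hold it within 100 bases of the start.
Ctsd: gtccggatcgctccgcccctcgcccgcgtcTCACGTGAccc
Lamp1: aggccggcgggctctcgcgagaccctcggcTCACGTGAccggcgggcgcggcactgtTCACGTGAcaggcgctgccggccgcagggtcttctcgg
The Ctsd stretch holds 1 core and the Lamp1 stretch 2. Ctsd had 609, 670 and 705 in LD and 1680, 1784, 1766 and 1829 in FBS. Lamp1 had 964, 1216 and 1041 in LD and 2268, 2264, 2795 and 2702 in FBS.

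Lipid genes divided by pathway. Of 25 genes of cholesterol and fatty acid synthesis 17 fell and 0 rose (median -1.48), while of 34 genes of fatty acid oxidation and peroxisomes 13 rose and 1 fell (median 0.35). With spike scaling the synthesis median was -0.67 with 8 falls and 4 rises, and with the GAPDH ratio as a covariate 11 fell. Counting all 58 probe sets of the synthesis genes, 37 fell and 2 rose. Idi1, which makes the isoprene unit of sterols, went from 1350, 2447 and 1550 to 242, 264, 261 and 201. Sqle, which starts the sterol ring, went from 3248, 4061 and 3486 to 701, 663, 727 and 482, and Scd, which makes monounsaturated fatty acids, from 511, 756 and 784 to 104, 92.8, 92.7 and 61.8. In each of these 3 genes the highest FBS culture was below the lowest LD culture, as was the case for 18.5% of probe sets in this direction. The 3 were named from the same values, so that separation was largely set in advance.

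On the oxidation side Cpt1a, which admits long-chain fatty acids to mitochondria, went from 117, 118 and 130 to 520, 470, 414 and 524. Acadvl, the first dehydrogenase of the long-chain spiral, went from 99.8, 72.6 and 94.6 to 220, 230, 203 and 247. Crot, which releases shortened fatty acids from peroxisomes, rose by 1.90 ± 0.28, and Cat, the peroxisomal catalase, by 1.25 ± 0.28. The fall was in Fabp5, a fatty acid carrier (-0.92 ± 0.14), which with spike scaling no longer passed (-0.12). Acsl3, which activates fatty acids and stands in the synthesis list, fell by 1.48 on the log2 scale, opposite to these enzymes of breakdown.

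The CCAAT box, bound by the factor NF-Y that works beside sterol-regulated activators, was searched as CCAAT on both strands. It was present in 11 of the 15 synthesis genes that fell and have a promoter (73.3%), in 18 of the 29 replication genes that fell (62.1%), and in 35.8% of the genes on the array. Over all measured genes with a promoter the shares were alike, 15 of 21 synthesis genes (71.4%) and 22 of 35 replication genes (62.9%). The sterol element searched as TCACNCCA was present in 1 of the 15 synthesis genes that fell (6.67%), Msmo1, and in 2.84% of the genes on the array. Idi1 (chr17:66547525-66547620, minus strand) and Fdps (chr2:176804867-176804976, minus strand) show the box in capitals, as CCAAT or as its reverse complement ATTGG, in 2 copies each.
Idi1: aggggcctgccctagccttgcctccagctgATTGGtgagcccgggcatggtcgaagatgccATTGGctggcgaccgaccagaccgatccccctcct
Fdps: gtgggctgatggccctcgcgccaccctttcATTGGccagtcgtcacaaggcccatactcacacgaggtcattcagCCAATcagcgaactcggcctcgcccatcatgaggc
Fdps, which makes farnesyl pyrophosphate, went from 4249, 4693 and 4225 in LD to 954, 913, 924 and 782 in FBS.

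**Figure D3:**
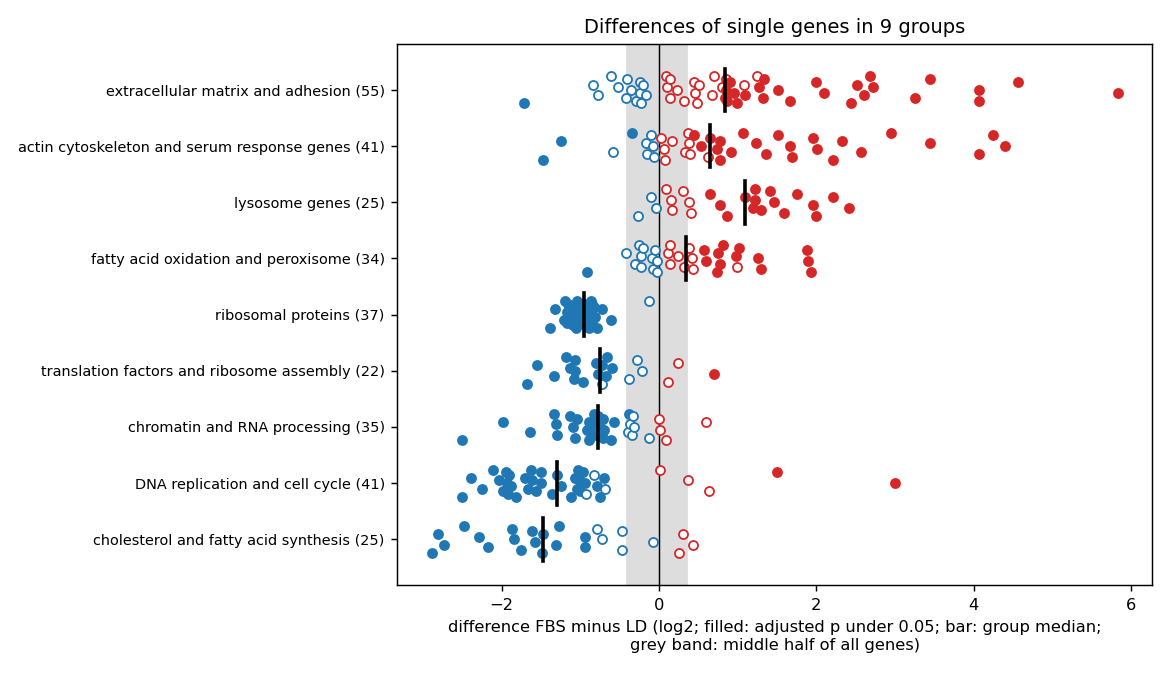
Differences FBS minus LD (log2) of single genes in 9 groups, filled where adjusted p was under 0.05, with the group median as a bar and the middle 50% of all genes in grey. Ribosomal protein genes form a narrow cluster around -0.95, while matrix and actin genes spread up to 5.84, and 2 replication-group genes, Ccnd2 and Ccnd3, stand alone on the right.

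Replication and mitosis genes fell in 33 of 41 cases and rose in 2 (median -1.30, and -0.50 with 20 falls under spike scaling). The helicase subunit Mcm6 went from 927, 1436 and 1182 to 170, 172, 255 and 172 on its probe set with the largest fall, and Dut, which keeps uracil out of DNA, from 1208, 1320 and 1294 to 239, 252, 279 and 194. Top2a, the topoisomerase of dividing cells, went from 1679, 2853 and 2503 to 376, 333, 427 and 480. Pcna, the replication clamp, stayed bright, at 4528, 4840 and 4706 in LD and 1558, 2117, 1876 and 1783 in FBS. Among 17 genes of nucleotide synthesis 5 fell and 0 rose, and their median turned from -0.41 to 0.40 with spike scaling.

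Both genes of that group that rose were D-type cyclins, the growth-factor-driven partners of Cdk4. Ccnd2 went from 264, 505 and 241 to 2321, 2284, 3333 and 2492 (7.99-fold, adjusted p = 2.72e-06), and Ccnd3 from 353, 287 and 264 to 791, 899, 819 and 904 (2.82-fold, adjusted p = 1.36e-05). Ccnd1 went the other way, from 2966, 4197 and 3743 to 2347, 1542, 2244 and 2310 (-0.79 ± 0.19). Only 1 of its 5 probe sets passed. That call was lost with the GAPDH covariate (adjusted p = 0.1) and with array 3r alone for FBS culture 3, and with spike scaling the difference was 0.02. Inhibitors rose beside the cyclins. Cdkn2b, which blocks Cdk4, went from 31.4, 20.5 and 27.5 to 175, 134, 131 and 245, Cdkn1a, which blocks Cdk2, rose by 1.25 ± 0.19, and Gadd45a, a stress-induced inhibitor, rose 5.85-fold. The list of cycle inhibitors and exit genes held 8 rises and no fall among 14 measured, with 5 rises after median centring.

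The E2F element, searched as TTTNGCGC on both strands, was found in 6 of the 29 replication genes that fell and have a promoter (20.7%), against 1.65% of the genes on the array and 1.11% of all promoters. The 6 were Mcm5, Mcm6, Mcm7, Stmn1, Cdk1 and Pola1. Over all measured replication genes with a promoter it was 8 of 35 (22.9%), so the share was no higher in those that fell. The 3 subunits of the replicative helicase are printed because they form 1 complex. They lie at chr19:13488570-13488641 (plus strand), chr13:42404450-42404521 (minus strand) and chr12:22163193-22163260 (minus strand), with the match in capitals; in Mcm5 and Mcm6 matches on the 2 strands overlap.
Mcm5: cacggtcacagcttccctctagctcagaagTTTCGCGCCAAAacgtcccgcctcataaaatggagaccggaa
Mcm6: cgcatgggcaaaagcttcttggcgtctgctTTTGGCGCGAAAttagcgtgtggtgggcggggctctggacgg
Mcm7: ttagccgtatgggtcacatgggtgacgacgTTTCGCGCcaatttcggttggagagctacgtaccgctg
Mcm5 went from 393, 456 and 472 in LD to 153, 130, 153 and 172 in FBS, and Mcm7 from 1926, 2122 and 2114 to 754, 634, 694 and 566.

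Of 18 intermediate filament and nuclear lamina genes 3 rose and 4 fell, against 13.6% and 12.4% of all genes, with a median of -0.01 (0.80 with spike scaling). Lmnb1, the B-type lamin, went from 203, 121 and 323 to 26.4, 26.0, 22.5 and 13.1. Lbr, the lamin B receptor, went from 131, 135 and 132 to 30.1, 38.3, 33.7 and 43.8, and Tmpo, a lamina-associated protein, from 681, 1130 and 928 to 221, 146, 182 and 123. Lmna, the A-type lamin of differentiated and stiff tissues, went up instead, from 348, 228 and 298 to 717, 615, 605 and 631. For the A-type lamin and for all 3 of the others, the FBS cultures were outside the range of the 10 cultures of every other group. That held for 8.07% of genes above that range and 6.10% below it. The lamina genes were named from the FBS and LD values, so their separation from LD was largely set in advance. Both probe sets of Lmnb1 fell.

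**Figure D4:**
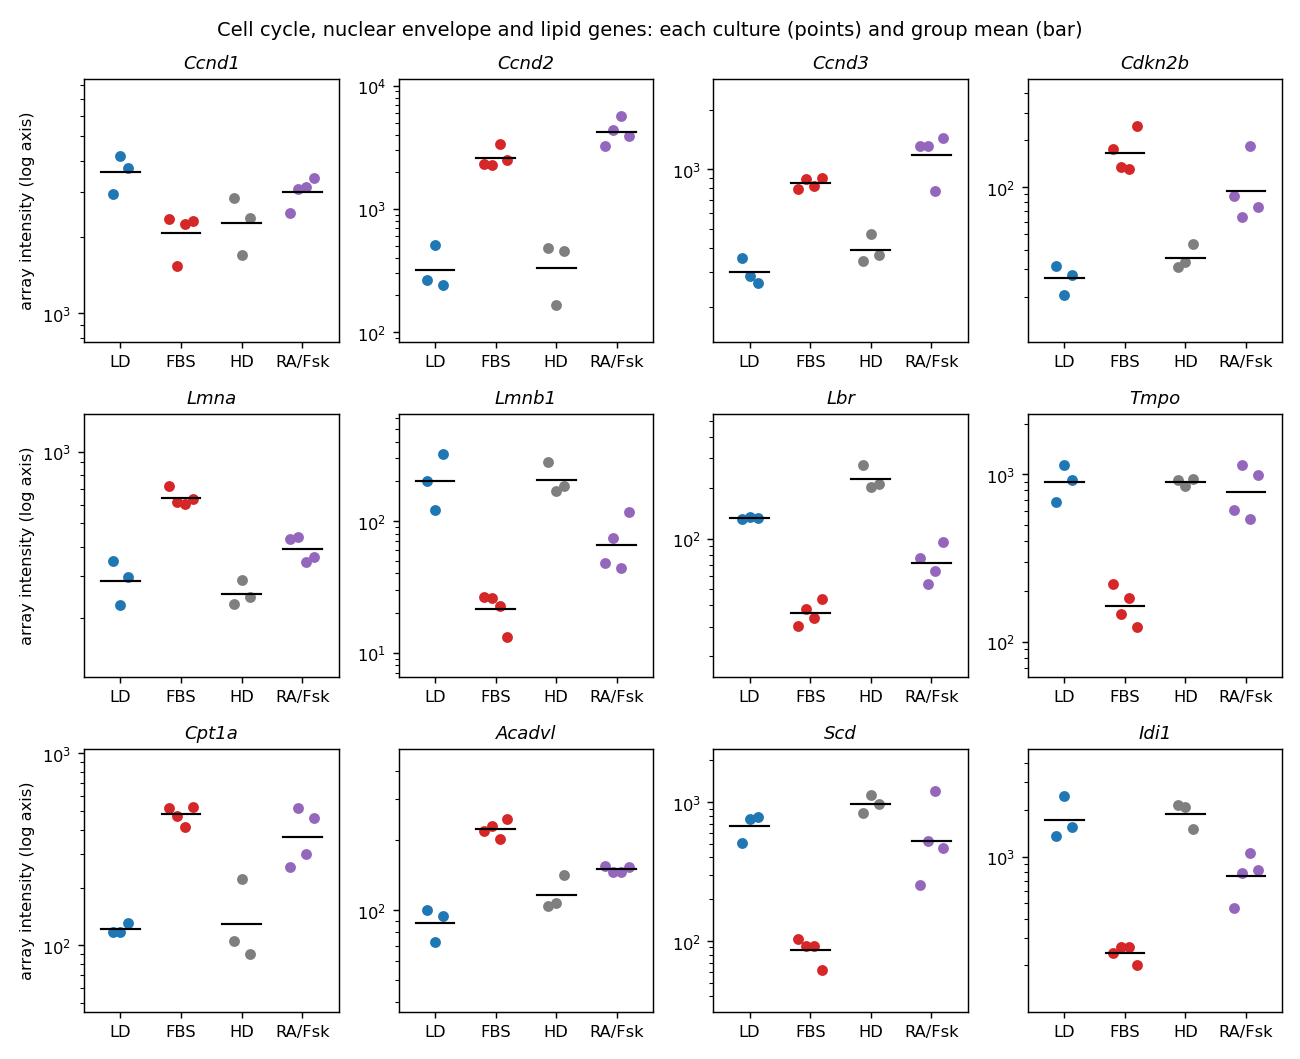
Array intensity (log axis) of 12 genes in each culture (points) with the group mean (bar). Ccnd2, Ccnd3, Cdkn2b, Lmna, Cpt1a and Acadvl are higher in FBS than in LD, Ccnd1, Lmnb1, Lbr, Tmpo, Scd and Idi1 are lower, and the highest Ccnd2 mean is that of RA/Fsk.

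The falls of ribosomal protein genes were close in size to the shift of the spikes. Of 37 ribosomal protein genes 36 fell, with a median of -0.95 (-0.15 with 4 falls under spike scaling, and -0.56 under quantile normalization). Rpl35a went from 4988, 4456 and 3779 to 1791, 1482, 1710 and 1737. Of 22 translation and ribosome assembly factors 15 fell and 1 rose (median -0.75, and 0.05 under spike scaling). Dkc1, the pseudouridine synthase of ribosomal RNA, exceeded that shift, from 935, 923 and 862 to 255, 285, 340 and 246. Of 35 chromatin and RNA processing genes 25 fell and 0 rose (median -0.78, and 0.03 under spike scaling). Hnrnpa1, a splicing regulator, went from 1556, 1863 and 1579 to 662, 444, 574 and 457, and Dnmt1, the maintenance DNA methyltransferase, from 535, 1005 and 1014 to 200, 187, 191 and 236. Only 1 of the 2 Dnmt1 probe sets passed, and the other differed by 0.002. On the common level the 5S rRNA control was lower in FBS by 1.17 log2 as well (exact permutation p = 0.0286). Whether total RNA per cell differed was not tested.

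Among the falls in tubulin genes were very bright ones. Tubb2b went from 10893, 10725 and 10181 to 4645, 4346, 4918 and 3733, and Tubb5 from 13295, 13492 and 12988 to 6232, 5547, 6444 and 6898. Tuba1b differed by -0.80 ± 0.12, which spike scaling turned to 0.01. The mitotic motor Kifc1, from 531, 619 and 750 to 79.4, 125, 142 and 147, fell further. In all 6 of 17 tubulin and microtubule genes fell and 2 rose, beside 12.4% and 13.6% of all genes. With spike scaling 3 fell and 9 rose, and the median turned from -0.03 to 0.78.

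Genes of transforming growth factor beta and BMP signalling rose in 14 of 36 cases and fell in 1, with a median of 0.51. Ligands moved in both directions. Tgfb1 went from 9.60, 8.50 and 7.10 to 68.0, 85.8, 48.3 and 75.6, Tgfb3 from 83.6, 135 and 116 to 220, 213, 214 and 297, and Tgfb2 rose by 1.12 ± 0.24. Bmp7, a BMP ligand, fell from 174, 164 and 212 to 49.7, 54.4, 27.1 and 81.1. Secreted antagonists of BMPs, named by the rule, rose. Nog, which encodes noggin, went from 19.3, 9.50 and 17.4 to 1154, 836, 856 and 691, and Grem1, which encodes gremlin, from 7.79, 8 and 8.9 to 131, 168, 132 and 166. Fstl1, a secreted follistatin relative, went from 268, 187 and 253 to 2258, 1470, 1995 and 2240.

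Target genes of both branches, picked after their values were seen except Pmepa1, rose. Id1 and Id3, induced by BMPs, went from 249, 237 and 130 to 1207, 697, 894 and 926, and from 429, 247 and 124 to 2367, 1689, 2034 and 2589. Only 1 of the 2 Id1 probe sets passed, and the other differed by 0.20. Pmepa1, a target and inhibitor of the transforming growth factor beta branch, went from 202, 256 and 420 to 3830, 2205, 2984 and 2191. These targets, of which Id1 and Id3 were picked after their values were seen, rose beside a fall of 1 BMP ligand and rises of 2 BMP antagonists.

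Of 44 genes of complement, acute phase and inflammation 12 rose and 4 fell, beside 13.6% and 12.4% of all genes. The proteases that start the classical complement cascade rose as a pair, C1r from 37.7, 9.30 and 31.5 to 223, 283, 275 and 253, and C1s from 24.4, 34.4 and 10.1 to 112, 188, 105 and 141. Cd59b, which blocks the final complement pore, went from 307, 275 and 267 to 699, 877, 741 and 751. Il6, a cytokine, rose within dim levels from 2.65 to 2.90 in LD to 22.6 to 42.4 in FBS (2.11 ± 0.26, adjusted p = 1.14e-05) on 1 of its 2 probe sets. Its receptor Il6r rose by 2.19 ± 0.33. With the GAPDH ratio as a covariate the median of the group turned from 0.23 to -0.20, and without LD culture 3 it was -0.07. Without the dimmer 50% of probe sets 7 rose and 2 fell. Leaving out LD culture 1 or FBS culture 2 also left 2 falls. Of 18 reactive astrocyte genes 7 rose and 0 fell, beside the same 13.6% and 12.4%. The guanylate-binding protein Gbp2 went from 3.85, 18.5 and 11 to 177, 149, 148 and 233, while Lcn2 (-0.90), C3 (-0.15) and Serpina3n (0.15) did not pass.

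Of 23 secreted factors by which astrocytes act on synapses and neuron survival, 7 rose and 1 fell, beside 13.6% and 12.4% of all genes. Their median was 0.66, and 0.23 without LD culture 3. Pros1, a ligand of receptors that clear dead cells, went from 144, 78.6 and 86.7 to 657, 700, 726 and 1027, and Gpc1, a glypican of the cell surface, rose by 0.95 ± 0.18. Thbs4, given above, was the fall. The neurotrophin Bdnf (-0.22) and the fibroblast growth factor Fgf2 (0.11) did not pass.

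Amino acid handling shifted in parts. Ass1, which joins citrulline and aspartate, went from 6.05, 2.60 and 3.30 to 294, 177, 123 and 162, and Asl, the next enzyme on the way to arginine, from 146, 114 and 141 to 236, 300, 235 and 312. Glud1, glutamate dehydrogenase, went from 620, 869 and 755 to 1776, 1647, 1800 and 1731. The serine synthesis enzymes fell, Psat1 from 1175, 1719 and 1142 to 546, 473, 587 and 392 and Phgdh from 1561, 1751 and 1558 to 801, 755, 886 and 808. With spike scaling these 2 no longer passed (-0.60 and -0.19). In all 8 of 30 rose and 6 fell, beside 13.6% and 12.4% of all genes. With spike scaling 15 rose and no fall was called, and the median turned from -0.12 to 0.69.

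Among 24 pump, channel and gap junction genes 6 rose and 1 fell, beside 13.6% and 12.4% of all genes. The 3 beta subunits of the sodium pump were among the rises. Atp1b1 went from 417, 415 and 382 to 929, 1112, 1161 and 724, Atp1b3 from 547, 725 and 738 to 1325, 1190, 1254 and 1044, and Atp1b2, the glial form, rose by 1.18 ± 0.22. The last was not called when array 3r alone stood for FBS culture 3 (adjusted p = 0.11). Slc12a2, a chloride cotransporter, rose by 1.29 ± 0.29 and the water channel Aqp1 by 1.93 ± 0.44.

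The same FBS cultures were then set beside the other groups. These comparisons use the FBS cultures again, so they are not independent of the values above. Against RA/Fsk, 19.3% of genes changed, 10.4% higher and 8.95% lower in FBS (10.1% and 8.27% of probe sets). S100b differed by -0.31 ± 0.17 from RA/Fsk (adjusted p = 0.237), with 2192 to 2564 in those cultures, and Pmepa1 by 0.26 ± 0.23 (adjusted p = 0.527). Ccnd2 lay at 3249 to 5641 in RA/Fsk and 2284 to 3333 in FBS and was not called (adjusted p = 0.127). Fn1 (16.7 to 50.4 in RA/Fsk), Nog (22.3 to 34.9) and Ass1 (2.5 to 4.6) stayed near their LD levels there. Of 25 lysosome genes 8 were higher in FBS than in RA/Fsk and 0 lower, and of 37 ribosomal protein genes 33 were lower. Ccl2, a chemokine, rose against LD (59.0 to 110 in LD, 116 to 282 in FBS) but lay far below RA/Fsk (1933 to 2186).

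Against HD progenitors 22.4% of genes changed, 12.1% higher and 10.3% lower in FBS (11.3% and 9.70% of probe sets). Aldoc, a glycolytic enzyme of astrocytes, rose against LD by 1.01 ± 0.16 but differed from HD by 0.07 ± 0.16 (adjusted p = 0.852). Slc1a3, at 111 to 281 in HD, did not pass there either (0.85 ± 0.31, adjusted p = 0.0623), whereas S100b did (377 to 651 in HD). Id1 and Id3 lay at 264 to 577 and 556 to 1041 in HD, above every LD culture, and FBS lay above both groups. Of 25 lysosome genes 16 were higher in FBS than in HD, and of 25 lipid synthesis genes 20 were lower and 1 higher.

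How close the 4 FBS cultures lay to each other differed by gene. Slc1a3 had a log2 SD of 0.05 over them, Grn of 0.07 and Cryab of 0.17. Other genes varied more. Egr2, a transcription factor that serum induces early, had 227, 608, 225 and 164 (SD 0.81). Smad7, an inhibitor of the transforming growth factor beta pathway, had 62.0, 13.0, 23.3 and 30.7 (SD 0.79), and Chgb lay at 60.3 to 181 (SD 0.72). The high culture was not the same in these genes: culture 2 led Egr2, culture 1 led Smad7 and culture 4 led Chgb. FBS culture 3 is the mean of arrays 3 and 3r, which correlated at 0.951, below the 0.975 of the 2 arrays of FBS culture 1. With array 3r alone for that culture 1998 probe sets changed, and with array 3 alone 2275.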

How the data were processed

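The deposited table holds 8799 probe set intensities on a linear scale for each of 20 Affymetrix rat arrays. How the authors corrected background, summarised probes and scaled is not given in the sources used here; trimmed means of 200.3 to 200.5 show a common scale. Values became log2(intensity + 4.99), arrays of a culture were averaged, and 59 control probe sets were left out. Of 8740 tested, 7006 carry 1 gene symbol, 308 several and 1426 none. All 14 cultures were fitted with limma 3.58.1 in R 4.3.3 (lmFit, eBayes with an intensity trend) with Benjamini-Hochberg adjustment. The script was tested on simulated data.

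Named genes are the 12 largest rises and falls, the 5 members of each of 31 lists with the smallest adjusted p, and set markers. Others, and the promoters and motifs shown, were picked after their values were seen. An AP-1 motif (TGANTCA) was also searched and gave 6.36% of all promoters and 0 of 18 actin genes that rose. Members, groups and lists were chosen with earlier results of these data known. Alternatives changed the pseudocount, scaling, filter, averaging, model and samples. Deviations of same-numbered FBS and LD cultures from their group means correlated at r = -0.06, 0.0987 and 0.03, and those of other pairs at -0.07 to 0.07. So few values do not decide whether the numbers pair the cultures.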

Additional observations from a re-analysis of the deposited data

Results flagged for a closer look

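Of 202 probe sets looked at, 8 had 1 FBS culture far from the other 3 by Dixon's test, and chance gives about 1 in 20. Ccnd1 was at 1542 in culture 2 against 2244 to 2347 in the others. Cdkn1a was at 175 in culture 3 against 215 to 219. Cyp51, a sterol demethylase, was at 381 in culture 4 against 494 to 521. The brightest Itga7 probe set was at 251 in culture 1 against 360 to 382. Mcm6 was at 255 in culture 3 against 170 to 172. Rpl19l4 was at 155 in culture 1 against 81.6 to 87.1. Sdc1 was at 54.3 in culture 4 against 25.1 to 28.8, and Tgfb3 at 297 against 213 to 220. Over all 8740 probe sets the culture apart was culture 4 in 205, culture 2 in 119, culture 1 in 101 and culture 3 in 94.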

How the results depend on the processing

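Counts for FBS against LD, RA/Fsk and HD stayed within 1.5 times of the main ones under the 21 alternatives other than spike scaling. These alternatives include those that left out 1 culture. With the replicate block, which treats the numbers as pairing the cultures although no label says so, 2278 probe sets changed against LD. Of 187 called probe sets among the 202 looked at one by one, 143 kept their call in every alternative run for them (20 to 22 each, since filters on dim probe sets removed some). Scaling to the spikes, chosen after the data were seen, gave 4639 changed against LD (4455 higher, 184 lower), 1325 higher and 236 lower against RA/Fsk, and 499 lower against HD. It turned Map2 (0.78), Calb2 (0.018), Ppib (0.0498), Tuba1b (0.0095), Nme1 (0.19), Prps1 (0.00061), Ccnd1 (0.018), Ccne1 (0.11), Cdk4 (0.053) and Notch1 (0.30) to higher in FBS, and of these only Map2 was called there (adjusted p = 0.0272). The number of cultures limits what small differences can be called.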
